A study of Rattus norvegicus with 16 samples.

Results

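A set of 10 matrix metalloproteinase genes (Mmp2, Mmp3, Mmp8, Mmp9, Mmp12, Mmp13, Mmp14, Mmp16, Mmp19 and Mmp23) was followed in cells that adhered to titanium implants in rat tibiae. They were taken by symbol, 10 of the 17245 genes named on the array, and each had 1 array row. The samples came from male Sprague Dawley rats and were hybridised to 16 Affymetrix Rat Gene 1.1 ST arrays. At day 4 after placement 4 arrays came from AT-I implants and 4 from AT-II implants, and so did the arrays at day 2. AT-I implants had a surface with nanoscale features, and AT-II implants had a microrough surface. Both were commercially pure titanium. Each of 8 rats carried 2 implants of one surface in one tibia and 2 of the other surface in the contralateral tibia, and 4 rats were used for each day. One sample is therefore RNA of the 2 implants of 1 tibia, recovered from everything that stayed on the metal after a rinse, and all groups shared the drilling injury and the ketoprofen given after surgery. No unimplanted or untreated bone was analysed here.

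Matrix metalloproteinases are zinc-dependent endopeptidases that cleave collagens and other proteins outside the cell. They are made as inactive zymogens, and their activity is held down by tissue inhibitors of metalloproteinases. In healing bone, osteoblasts, stromal cells, macrophages, neutrophils and osteoclasts each make a different set of them. RNA levels say nothing of zymogen activation, which is not measured by an array.

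Values are log2 expression, so a difference of 1 is a doubling, and a level of one gene is not set against that of another because probes differ in brightness. One pair of arrays (AT-II day 2, replicates 2 and 3) was more alike than any other of the 120 pairs (SD of their difference 0.109 in the most variable bright rows, against at least 0.294), and the pair was averaged and counted as 1 sample. AT-II day 2 thus had n = 3, and 15 samples entered each test. The interquartile range over genes was narrower on the arrays of AT-I day 2 (2.48 to 2.98) than on those of AT-II day 2 (3.05 to 3.41), and was 2.60 to 3.41 at AT-I day 4 and 3.10 to 3.42 at AT-II day 4. Differences were tested with limma across all 17245 genes, and a gene passed at a Benjamini-Hochberg adjusted p under 0.05.

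Between day 2 and day 4, 5 of the 10 genes rose on AT-I and the same 5 rose on AT-II, and 0 fell on either. They were Mmp2, Mmp14, Mmp16, Mmp23 and Mmp12. Among all genes 11.5% passed on AT-I, 8.84% higher and 2.66% lower, and 3.33% passed on AT-II, 3.13% higher and 0.203% lower. In all 5 the samples of day 4 lay above those of day 2, as did 11.3% of all genes on AT-I and 8.74% on AT-II. The median difference of the 10 genes was 0.90 on AT-I and 0.88 on AT-II, against -0.05 for all genes on each surface. Between the surfaces 0 of the 10 passed at either day.

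**Figure D1:**
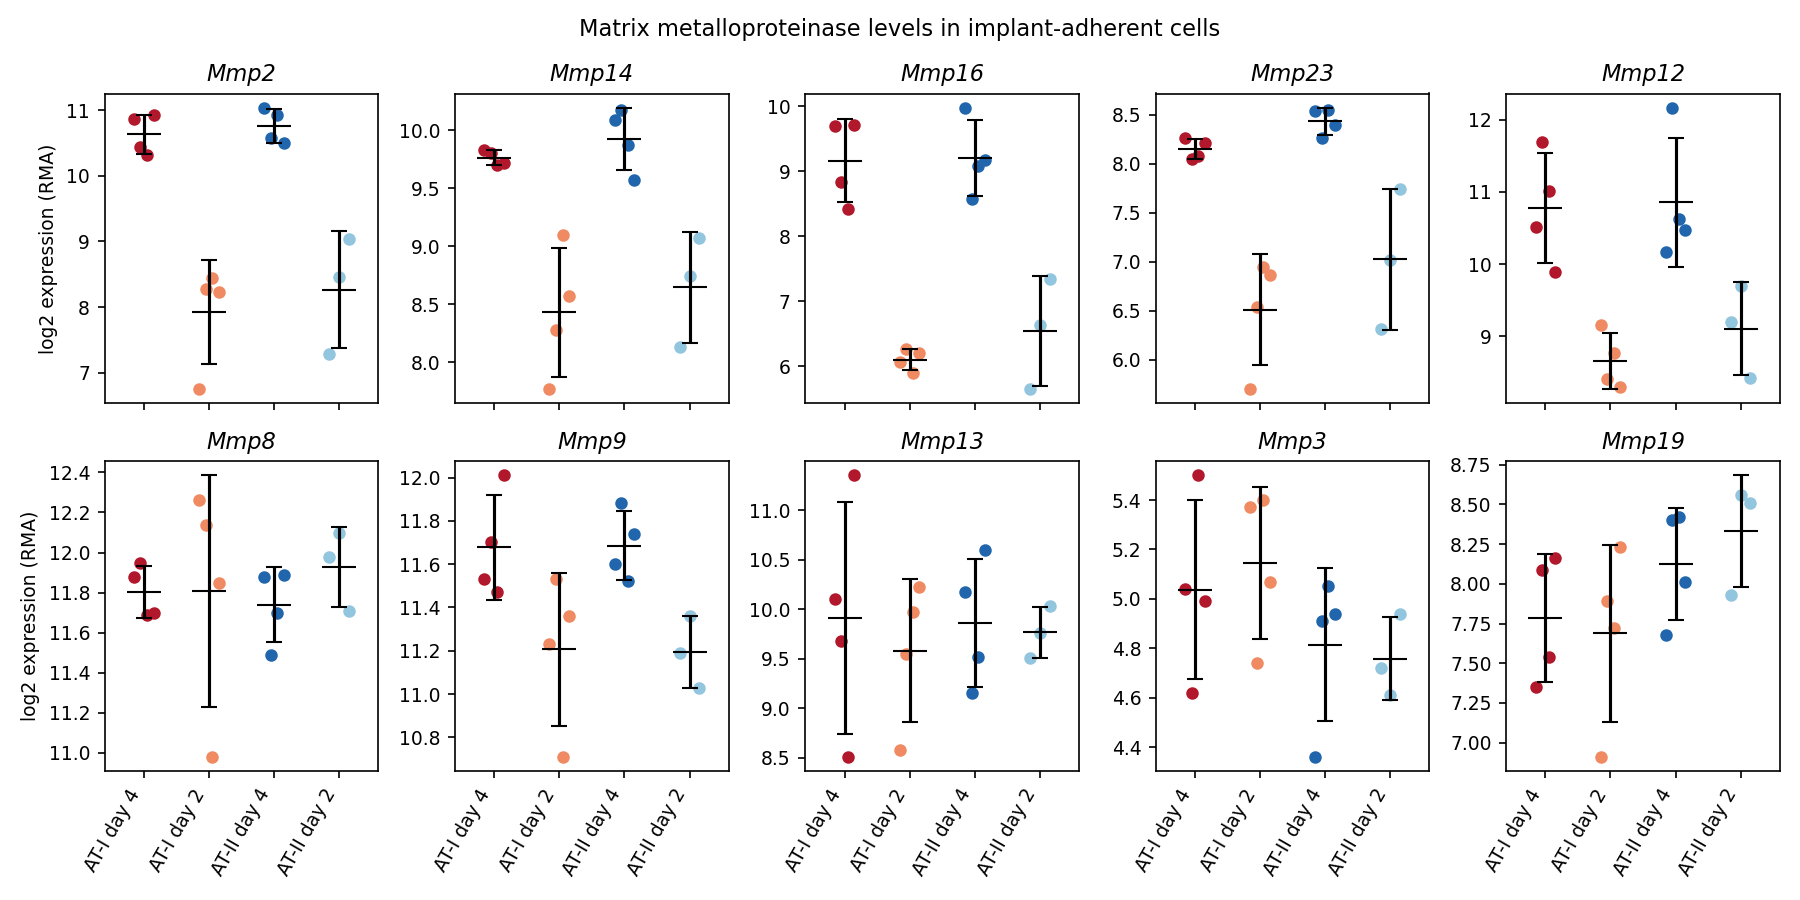
Levels of the 10 genes (vertical axes, log2 expression, each panel on its own scale that does not start at 0) in each sample of the 4 groups. Points are samples, long bars group means and whiskers SD (n = 4, or 3 for AT-II day 2). Mmp2, Mmp14, Mmp16, Mmp23 and Mmp12 show no overlap between day 4 and day 2 on either surface, and the other 5 genes overlap except Mmp9 on AT-II.

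Mmp16 encodes membrane-type 3 metalloproteinase, a protease anchored in the plasma membrane. It stood at 9.69, 8.84, 8.42 and 9.71 in the 4 AT-I day 4 samples, against 6.06, 6.26, 5.90 and 6.20 at AT-I day 2. On AT-II it stood at 9.98, 8.57, 9.08 and 9.18 at day 4, against 5.65, 6.64 and 7.34 at day 2. The days were far apart on both surfaces. The rise on AT-I was 3.06 ± 0.36 (SE; adjusted p = 7.75e-05), or 8.35-fold with a 95% interval of 4.91 to 14.2, and it ranked 10 among the differences of all 17245 genes. On AT-II the rise was 2.66 ± 0.39 (adjusted p = 0.000846), or 6.32-fold (3.56 to 11.2), at rank 17.

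Mmp2 encodes gelatinase A, which degrades denatured collagen and basement membrane collagen. It had levels of 10.86, 10.44, 10.32 and 10.92 at AT-I day 4, against 6.75, 8.28, 8.45 and 8.23 at AT-I day 2. At AT-II day 4 the levels were 11.04, 10.58, 10.93 and 10.50, against 7.29, 8.46 and 9.04 at AT-II day 2. The lowest value at day 2 belonged to replicate 1 on each surface, and the day 4 samples of both surfaces lay within a narrow band. Mmp2 rose by 2.71 ± 0.37 on AT-I (6.53-fold, adjusted p = 0.000219) and by 2.50 ± 0.40 on AT-II (5.66-fold, adjusted p = 0.00159). Without both day 2 samples numbered 1, a setting added after the data were seen, the rises were 2.31 and 2.01, and both still passed.

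Mmp14 encodes membrane-type 1 metalloproteinase, a cell-surface collagenase that, together with the inhibitor TIMP2, also activates the zymogen of Mmp2. Its levels were 9.83, 9.80, 9.70 and 9.72 at AT-I day 4, against 7.77, 8.28, 9.10 and 8.57 at AT-I day 2. On AT-II they were 10.09, 10.17, 9.87 and 9.57 at day 4, against 8.13, 8.74 and 9.07 at day 2. The AT-I day 4 samples differed little among themselves (SD 0.06), while those of AT-I day 2 spread over more than 1 log2 unit (SD 0.56). Mmp14 rose by 1.33 ± 0.24 on AT-I (2.52-fold, adjusted p = 0.0022) and by 1.28 ± 0.26 on AT-II (2.42-fold, adjusted p = 0.0116).

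Mmp23 encodes a small membrane-bound metalloproteinase with a domain arrangement unlike that of the other family members. It stood at 8.26, 8.05, 8.08 and 8.21 at AT-I day 4, against 5.70, 6.54, 6.95 and 6.86 at AT-I day 2. On AT-II it stood at 8.54, 8.26, 8.55 and 8.39 at day 4, against 6.31, 7.02 and 7.74 at day 2. As with Mmp2, replicate 1 was lowest at day 2 on each surface. The rises were 1.64 ± 0.27 on AT-I (3.11-fold, adjusted p = 0.00108) and 1.41 ± 0.29 on AT-II (2.66-fold, adjusted p = 0.0127). On AT-II, leaving out replicate 1 of day 2 ended the calls of Mmp14 (1.02, adjusted p = 0.101) and Mmp23 (1.06, adjusted p = 0.101) along with that of Mmp12 (1.8, adjusted p = 0.168), which left 2 of the 10 genes. Without the averaged sample the calls of Mmp23 (1.41, adjusted p = 0.0574) and Mmp12 ended and 3 remained past the threshold. With both day 2 samples numbered 1 left out, 4 passed on AT-II and 5 on AT-I.

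Mmp12 encodes macrophage elastase, which cleaves elastin and is made chiefly by macrophages. Its levels were 10.52, 11.69, 11.01 and 9.89 at AT-I day 4, against 9.16, 8.40, 8.77 and 8.30 at AT-I day 2. At AT-II day 4 they were 10.17, 12.17, 10.63 and 10.47, against 9.20, 9.70 and 8.42 at AT-II day 2. Replicate 2 was the highest at day 4 on each surface. Mmp12 rose by 2.12 ± 0.43 on AT-I (4.35-fold, 95% interval 2.32 to 8.16, adjusted p = 0.00439). On AT-II it rose by 1.75 ± 0.46 (3.37-fold, 1.71 to 6.66, adjusted p = 0.0498), a call at the edge of the threshold that held in 9 of 25 other settings, with differences of 1.32 to 2.05 and adjusted p of 0.0327 to 0.186. Leaving out 1 sample ended it for 12 of the 15 samples, among them each of the 7 AT-II samples. The smallest difference (1.32) was that without AT-II day 4 replicate 2.

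**Figure D2:**
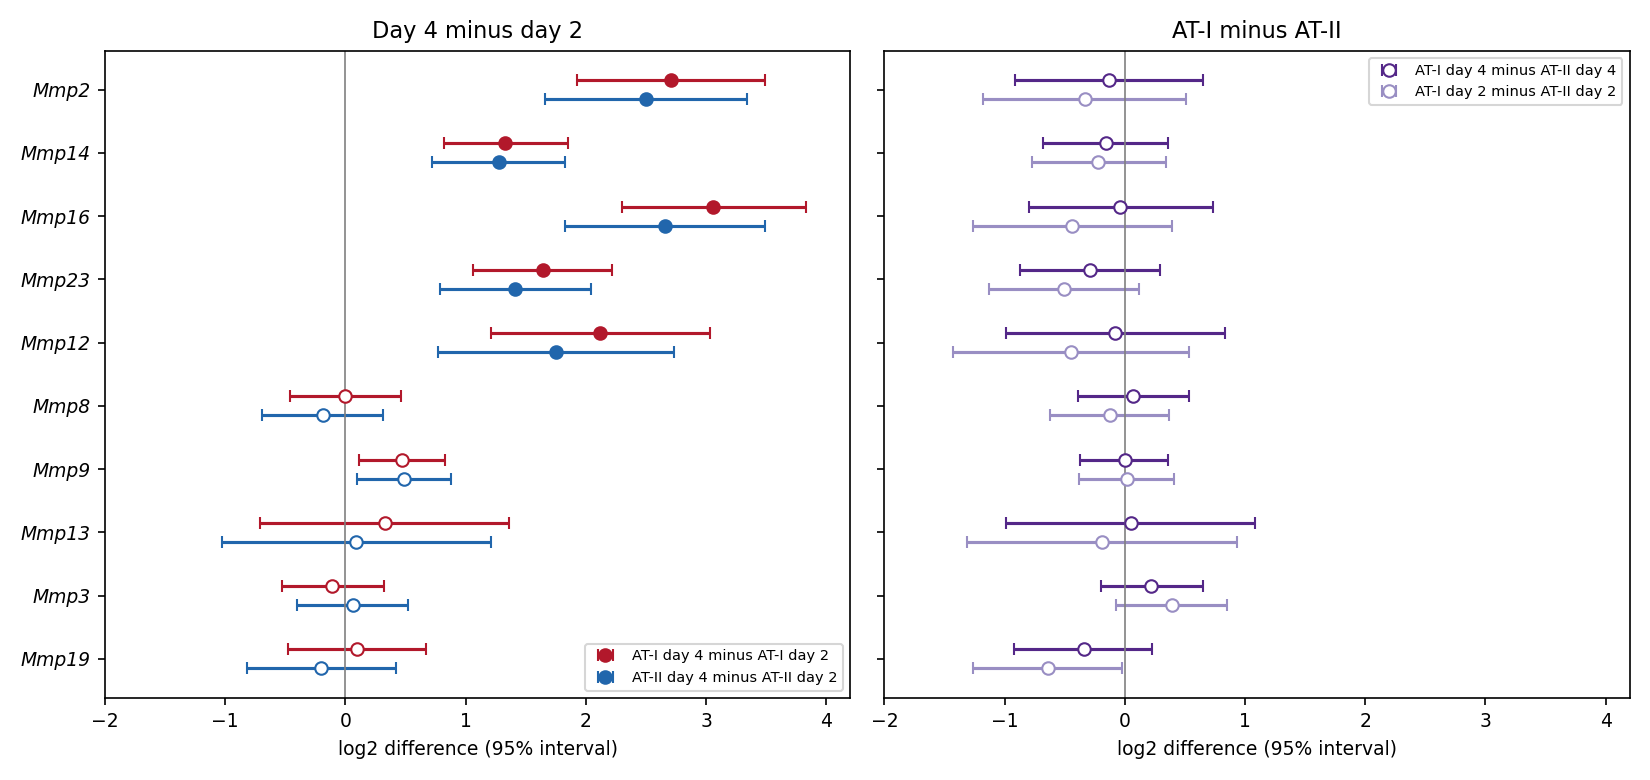
Log2 differences (horizontal axes) of the 10 genes with 95% intervals from limma, day 4 minus day 2 on each surface (left) and AT-I minus AT-II at each day (right). Filled points passed at an adjusted p under 0.05. The 5 filled pairs lie between 1.28 and 3.06, and no surface difference is filled.

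Mmp8 and Mmp9 are stored in the granules of neutrophils, and Mmp9 is also made by osteoclasts. Mmp8, neutrophil collagenase, stood at 11.88, 11.95, 11.69 and 11.70 at AT-I day 4, against 12.26, 12.14, 10.98 and 11.85 at AT-I day 2. On AT-II it stood at 11.88, 11.49, 11.70 and 11.89 at day 4, against 11.98, 12.10 and 11.71 at day 2. The days overlapped on both surfaces. Its difference was -0.00 on AT-I (95% interval -0.46 to 0.46, adjusted p = 0.993) and -0.19 on AT-II (-0.69 to 0.31, adjusted p = 0.822), so on neither surface did the interval reach a doubling or a halving.

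Mmp9, gelatinase B, had 11.53, 11.70, 11.47 and 12.01 at AT-I day 4, against 11.23, 11.53, 10.71 and 11.36 at AT-I day 2. On AT-II it had 11.60, 11.88, 11.52 and 11.74 at day 4, against 11.19, 11.36 and 11.03 at day 2. The samples of the 2 days overlapped on AT-I and not on AT-II, which 8.74% of all genes shared. The differences were 0.47 ± 0.17 on AT-I (adjusted p = 0.087) and 0.49 ± 0.18 on AT-II (adjusted p = 0.223), and neither passed. Mmp9 passed on AT-I only without AT-I day 2 replicate 2 (0.58, adjusted p = 0.0419), of 25 other settings run.

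Mmp13, Mmp3 and Mmp19 did not pass on either surface. Mmp13, collagenase 3, is the main interstitial collagenase of rodent bone, made by osteoblasts and hypertrophic chondrocytes. It stood at 10.10, 9.68, 8.51 and 11.35 at AT-I day 4, against 8.58, 9.55, 9.97 and 10.22 at AT-I day 2. At AT-II day 4 it stood at 10.17, 9.15, 9.52 and 10.60, against 9.51, 9.76 and 10.03 at AT-II day 2. The AT-I day 4 samples alone covered more than the range of AT-I day 2. Its spread within groups (pooled SD 0.80) was above that of 99.6% of all genes, whose median was 0.23. The differences were 0.33 (95% interval -0.71 to 1.36) on AT-I and 0.09 (-1.03 to 1.21) on AT-II, intervals that include a doubling.

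Mmp3, stromelysin 1, cleaves a wide range of matrix proteins and activates other zymogens. Its levels were 5.04, 4.62, 5.50 and 4.99 at AT-I day 4, against 5.37, 4.74, 5.40 and 5.07 at AT-I day 2. They were 4.36, 4.91, 5.05 and 4.94 at AT-II day 4, against 4.72, 4.61 and 4.94 at AT-II day 2. All 4 groups overlapped, and the differences between days were -0.11 (-0.53 to 0.32) on AT-I and 0.06 (-0.40 to 0.52) on AT-II. In every sample Mmp3 lay below the lower quartile of all genes, which was 5.05 to 5.56 over the samples. At so low a level the row may carry little signal, and the intervals do not show steady expression. The genes most like it over the 15 samples were the olfactory receptor genes Or10d3, Or52j3 and Or13a25 (r = 0.954, 0.943 and 0.933), and its correlation with the interquartile range of the arrays was -0.83. The part of array spread in the Mmp3 values was not tested.

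Mmp19 is a secreted family member also found in the inflamed joint lining of people with rheumatoid arthritis. It had 7.35, 8.09, 7.54 and 8.16 at AT-I day 4, against 6.91, 7.89, 7.72 and 8.23 at AT-I day 2. It had 7.68, 8.40, 8.42 and 8.01 at AT-II day 4, against 7.93, 8.56 and 8.51 at AT-II day 2. The days overlapped on both surfaces, with differences of 0.10 (-0.48 to 0.67) on AT-I and -0.20 (-0.82 to 0.42) on AT-II.

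Within each gene the groups can be put in order by their means. For Mmp2, Mmp12, Mmp14, Mmp16 and Mmp23 the means ran, from high to low, through AT-II and then AT-I at day 4, and through AT-II and then AT-I at day 2. The neighbours of the same day did not pass a test, and AT-I day 4 against AT-II day 2 was not tested. For Mmp9 both day 4 groups averaged 11.68, against 11.21 at AT-I day 2 and 11.19 at AT-II day 2. Mmp19 was highest at AT-II day 2 (8.33) and AT-II day 4 (8.13), then AT-I day 4 (7.79) and AT-I day 2 (7.69). For Mmp3, Mmp8 and Mmp13 the group means lay within 0.39, 0.19 and 0.33 of each other.

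Some lists of cell type markers moved with the days, and others did not. The 10 measured of 12 osteoblast markers had sample means of 9.56 to 10.34 at AT-I day 4, against 6.26 to 7.40 at AT-I day 2, and of 9.51 to 10.44 at AT-II day 4, against 6.41 to 7.90 at AT-II day 2. The 7 measured of 8 fibroblast and stromal markers had 9.81 to 10.10 at AT-I day 4, against 8.05 to 9.0 at AT-I day 2, and 9.74 to 10.09 at AT-II day 4, against 8.75 to 9.34 at AT-II day 2. These 2 lists separated the days without overlap, as did the rising metalloproteinases. The 11 measured macrophage markers overlapped between days, with 9.19 to 9.50 at AT-I day 4, against 8.72 to 9.60 at AT-I day 2, and 9.33 to 9.61 at AT-II day 4, against 9.31 to 9.70 at AT-II day 2. The 12 neutrophil markers had 9.87 to 10.52 at AT-I day 4, against 10.23 to 10.84 at AT-I day 2, and 9.99 to 10.28 at AT-II day 4, against 10.22 to 10.78 at AT-II day 2. The 6 measured of 10 osteoclast markers had 7.55 to 8.48 at AT-I day 4, against 6.37 to 7.61 at AT-I day 2, and 7.67 to 8.11 at AT-II day 4, against 6.62 to 7.61 at AT-II day 2. The part of cell composition in the changes was not tested, and in bulk RNA more cells of a type and more RNA per cell cannot be told apart.

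The deviations of samples from their group means show which genes varied together apart from day and surface. They are a description over 15 samples that share arrays, animals and normalization. Mmp2 varied with Mmp23 (r = 0.95), Mmp14 (0.82) and Mmp16 (0.63), and with the mean of the stromal markers (0.94) and of the osteoblast markers (0.88). It also varied with the macrophage markers (0.77) and the osteoclast markers (0.75), so these values do not tie Mmp2 to 1 cell type. On each surface, replicate 1 of day 2 was lowest in its group for Mmp2, Mmp14, Mmp19 and Mmp23. It was also lowest there for the means of the stromal, osteoblast, macrophage and osteoclast markers. These samples weigh heavily on the r values, and r without them was not taken. Mmp16 followed the osteoblast markers (0.84) more closely than the stromal ones (0.56). Mmp8 followed the neutrophil markers (0.72) and the erythroid markers (0.78), and went against Mmp14 (-0.76). Mmp19 followed the macrophage markers (0.87), the osteoclast markers (0.76) and the T and B cell markers (0.73). Mmp12 did not follow the macrophage list (0.01) and went against Mmp16 (-0.68) and Mmp13 (-0.66).

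**Figure D3:**
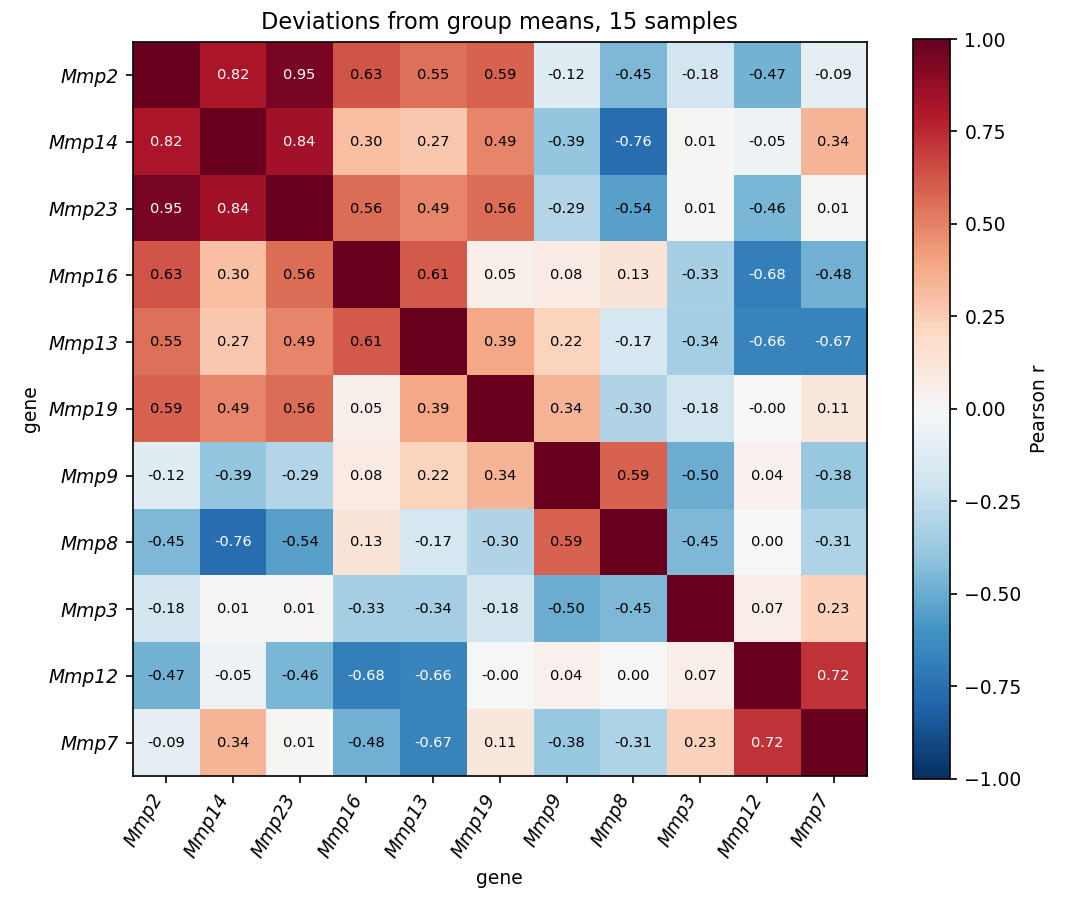
Pearson r between the deviations of 15 samples from their group means, for the 10 genes and Mmp7 (both axes list genes, the colour bar gives r). Mmp2, Mmp14 and Mmp23 form a block of 0.82 to 0.95, and Mmp12 and Mmp7 (0.72) stand opposite Mmp13 (-0.66 and -0.67).

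Over the raw values of the 15 samples, which include the difference between days, each gene had close neighbours among all genes. Mmp16 was most like Phex (r = 0.993), whose loss causes phosphate wasting, and Mmp23 most like Sparc, which encodes osteonectin (0.989), and Bgn, which encodes biglycan (0.988). Mmp2 was most like Cgref1 (0.997), Mrc2, an endocytic collagen receptor (0.995), and Fkbp10, a chaperone of collagen in the endoplasmic reticulum (0.994). Mmp14 was most like the collagen gene Col5a1 (0.990). Mmp8 was most like Fpr1, a formyl peptide receptor of neutrophils (0.964). Mmp12 was most like Cdh13 (0.909) over the values, whereas over deviations from group means Cd300lf (0.927), Itgam and Hk3, genes of myeloid cells, came first. Mmp13 had weaker neighbours (Rpl23, a ribosomal protein gene, 0.868), as had Mmp9 (Ash1l, 0.878), and Mmp19 was most like Coq9 (0.955).

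Of the 10 genes, 4 lie close together. On rat chromosome 8 of GRCr8 the metalloproteinase genes run in the order Mmp13, Mmp12, Mmp1b, Mmp3, Mmp1, Mmp10, Mmp8, Mmp27, Mmp20 and Mmp7, with pseudogenes between some of them. Of these Mmp12 rose, and Mmp13, Mmp3 and Mmp8 did not pass. Promoter sequences were at hand in the RefSeq table (GRCr8) for these 4 and for Mmp23, which lies on chromosome 5, and not for Mmp2, Mmp9, Mmp14, Mmp16 and Mmp19. The 250 bases before each start site are shown because not all of these neighbouring genes passed between the days. The genes were not tested against each other, so a difference in course between them was not shown. Capitals mark exact matches to 4 motifs, none of which overlap: AP-1 (TGANTCA), RUNX (TGTGGT), PEA3 (AGGAAG) and a TATA box (TATAAA), each read on both strands.
Mmp12: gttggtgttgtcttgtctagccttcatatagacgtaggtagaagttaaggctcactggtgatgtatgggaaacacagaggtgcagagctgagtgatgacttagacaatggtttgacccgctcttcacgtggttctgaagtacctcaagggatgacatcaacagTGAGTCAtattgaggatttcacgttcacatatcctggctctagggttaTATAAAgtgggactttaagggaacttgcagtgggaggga
Mmp13: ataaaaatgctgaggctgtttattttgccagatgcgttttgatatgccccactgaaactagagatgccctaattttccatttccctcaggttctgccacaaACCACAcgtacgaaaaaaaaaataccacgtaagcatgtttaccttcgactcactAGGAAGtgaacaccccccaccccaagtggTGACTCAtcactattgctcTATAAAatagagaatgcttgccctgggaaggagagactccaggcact
Mmp3: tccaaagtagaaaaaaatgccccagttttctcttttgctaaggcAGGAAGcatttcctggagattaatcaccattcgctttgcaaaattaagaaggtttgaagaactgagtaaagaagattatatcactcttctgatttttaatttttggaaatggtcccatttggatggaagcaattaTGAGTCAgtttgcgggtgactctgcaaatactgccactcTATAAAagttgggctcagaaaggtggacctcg
Mmp8: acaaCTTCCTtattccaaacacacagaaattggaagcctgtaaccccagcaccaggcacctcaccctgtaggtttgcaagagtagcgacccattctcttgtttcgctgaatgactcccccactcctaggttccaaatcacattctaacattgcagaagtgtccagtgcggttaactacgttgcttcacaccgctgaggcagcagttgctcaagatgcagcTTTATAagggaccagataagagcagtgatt
Mmp23: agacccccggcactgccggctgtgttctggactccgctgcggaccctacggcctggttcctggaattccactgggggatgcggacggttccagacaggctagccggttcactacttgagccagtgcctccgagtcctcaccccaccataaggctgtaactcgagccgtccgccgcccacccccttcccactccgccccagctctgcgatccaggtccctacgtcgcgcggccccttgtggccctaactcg
The windows are chr8:12866402-12866651 for Mmp12, chr8:12782579-12782828 for Mmp13, chr8:12925031-12925280 for Mmp3 and chr8:13008640-13008889 for Mmp8, on the plus strand, and chr5:171524535-171524784 for Mmp23, on the minus strand. AP-1, a dimer of Fos and Jun proteins, is known to act on metalloproteinase promoters, and its motif starts at -87 in Mmp12, -66 in Mmp13 and -71 in Mmp3. Of 33469 promoter windows of the same length, 6.34% hold it, against 3 of these 5. A TATA box was matched in the 4 genes of chromosome 8, in Mmp8 on the reverse strand, and in 12.9% of all windows. The RUNX motif was matched in Mmp13 alone of the 5 (at -149, 14.5% of all windows), and PEA3 in Mmp13, Mmp3 and Mmp8 (29.5% of all windows). In Mmp23 these letters were not in the window. A match describes the sequence and is not evidence of a bound site.

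The rest of the pathway was followed through gene lists. Of 12 other metalloproteinase genes 11 were measured, and 0 passed on either surface, where 11.5% of all genes passed on AT-I and 3.33% on AT-II. Mmp1 and Mmp20 lay below the lower quartile of all genes in every sample, and Mmp10, Mmp11, Mmp17, Mmp21 and Mmp27 lay near or below it. At such levels the rows may carry little signal, and 0 passing does not show steady expression. On AT-I, 1 passed higher without AT-I day 4 replicate 4 (Mmp7). There 1 passed lower with each array centred on its median, without AT-I day 2 replicate 2 or without AT-I day 4 replicate 1. Mmp7, matrilysin, which stands at the other end of the chromosome 8 cluster, varied most. It had 6.82, 8.06, 7.46 and 4.87 at AT-I day 4, against 5.43, 4.57, 5.86 and 5.48 at AT-I day 2. At AT-II day 4 it had 6.16, 8.47, 7.46 and 5.27, against 4.93, 4.90 and 5.45 at AT-II day 2. Replicate 4 stayed low and replicate 2 was highest at day 4 on both surfaces, and the pooled SD within groups was 1.08, above that of 99.9% of genes. The differences were 1.47 ± 0.65 on AT-I (adjusted p = 0.154) and 1.75 ± 0.70 on AT-II (adjusted p = 0.271). Mmp7 passed on AT-I without AT-I day 4 replicate 4 (2.11, adjusted p = 0.0395).

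Of 7 inhibitor genes 1 rose on each surface and 0 fell, where 8.84% of all genes rose on AT-I and 3.13% on AT-II. This is a result for 1 gene and not for the list. On AT-I, 1 inhibitor passed as lower without AT-I day 2 replicate 2. On AT-II, 1 did with only the 2 groups compared in the fit. Reck, a membrane-anchored inhibitor of metalloproteinases, had 7.30, 7.19, 7.22 and 7.15 at AT-I day 4, against 6.21, 6.36, 6.25 and 6.18 at AT-I day 2. On AT-II it had 7.57, 7.26, 7.49 and 7.26 at day 4, against 6.14, 6.31 and 6.60 at day 2. The days were apart on both surfaces. Reck rose by 0.96 ± 0.12 on AT-I (adjusted p = 0.000109). On AT-II it rose by 1.05 ± 0.13 (adjusted p = 0.000233). The median of the list was 0.14 on AT-I and 0.28 on AT-II, against -0.05 for all genes.

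Of 9 measured genes of zymogen activation, 3 rose on each surface and 0 fell, where 8.84% of all genes rose on AT-I and 3.13% on AT-II. In several settings 1 passed as lower on AT-I. Among them were all 16 arrays counted separately, each array centred on its median, array weights and leaving out AT-I day 2 replicate 2. Pcsk6, a proprotein convertase, rose by 2.16 ± 0.23 on AT-I (4.47-fold, adjusted p = 3.43e-05) and by 1.75 ± 0.24 on AT-II (adjusted p = 0.000595). Pcsk5, a related convertase, rose by 0.81 ± 0.15 and 1.06 ± 0.17. Serpine2, an inhibitor of thrombin and plasminogen activators, is the exception in function and rose by 1.76 ± 0.26 on AT-I and 1.19 ± 0.28 on AT-II, where 6 samples left out singly each ended its call. Furin, which can cleave the propeptide of membrane-type metalloproteinases, had a difference of -0.14 ± 0.15 on AT-I and 0.01 ± 0.16 on AT-II (adjusted p = 0.56 and 0.988).

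Of 26 measured ADAM and ADAMTS genes, 11 rose on AT-I (8.84% of all genes did) and 6 on AT-II (3.13%), and 0 fell. The AT-I count was 7 without AT-I day 4 replicate 1 and also with each array centred on its median, where 2 passed as lower. Without AT-I day 2 replicate 2, 1 passed as lower on AT-I. The AT-II count ran from 5 to 9 over the other settings. Adamts18 rose by 2.78 ± 0.38 on AT-I and 2.67 ± 0.41 on AT-II. Adamts2, which removes the amino-terminal propeptide of fibrillar procollagens, rose by 2.40 ± 0.26 (adjusted p = 4.17e-05) and 2.22 ± 0.28 (adjusted p = 0.000272). Adamts17 rose by 1.26 ± 0.17 and 1.68 ± 0.18. The medians of the list were 0.21 on AT-I and 0.10 on AT-II.

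Among 11 measured matrix substrates 6 rose on AT-I (8.84% of all genes did) and 5 on AT-II (3.13%), and 0 fell. Col5a2 rose by 2.14 ± 0.35 and 1.96 ± 0.38, and Col1a1, a chain of type I collagen, by 1.75 ± 0.33 (adjusted p = 0.00263) and 1.54 ± 0.35 (adjusted p = 0.023). The AT-II count of 5 was 0 without replicate 1 of day 2, 1 without the averaged sample, 2 without replicate 1 or replicate 3 of day 4, and 3 without replicate 2 of day 4. Among 17 measured inducers and transcription factors, Runx2, a master factor of osteoblasts, rose by 1.27 ± 0.17 on AT-I and 1.34 ± 0.18 on AT-II, and Cebpb fell by 1.38 ± 0.34 on AT-I (adjusted p = 0.0158). No other gene of that list passed, where 8.84% of all genes rose and 2.66% fell on AT-I, and 3.13% rose and 0.203% fell on AT-II. These are results for Runx2 and Cebpb and not for the list. The median of the list was -0.61 on AT-I and -0.40 on AT-II, against -0.05 for all genes. Il1b, a cytokine that induces metalloproteinases, had a difference of -2.25 ± 0.84 on AT-I (adjusted p = 0.0949), and Fos, a subunit of AP-1, one of -0.61 ± 0.23 (adjusted p = 0.0954). Il1b stood at 13.03 in replicate 1 of AT-I day 2, against 9.90 to 10.83 in the other samples of that group. The days overlapped, with 10.29 in replicate 2 of AT-I day 4. On AT-II, replicate 1 of day 2 had 12.52, against 9.09 and 9.12 in the others. Cebpb stood at 10.09 in replicate 1 of AT-I day 2, against 8.13 to 8.46 in the other samples of that group. With 1 sample left out its difference on AT-I ran from -1.59 to -0.94. Cebpb no longer passed (adjusted p = 0.0505) when replicate 4 of AT-I day 4 was left out. Nor did it with array interquartile range as a covariate (adjusted p = 0.0706) or only the 2 groups compared in the fit (adjusted p = 0.0593). In contrast, 4 genes of the list passed as lower when replicate 2 of AT-I day 2 was left out, and 3 when replicate 1 of AT-II day 2 was.

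**Figure D4:**
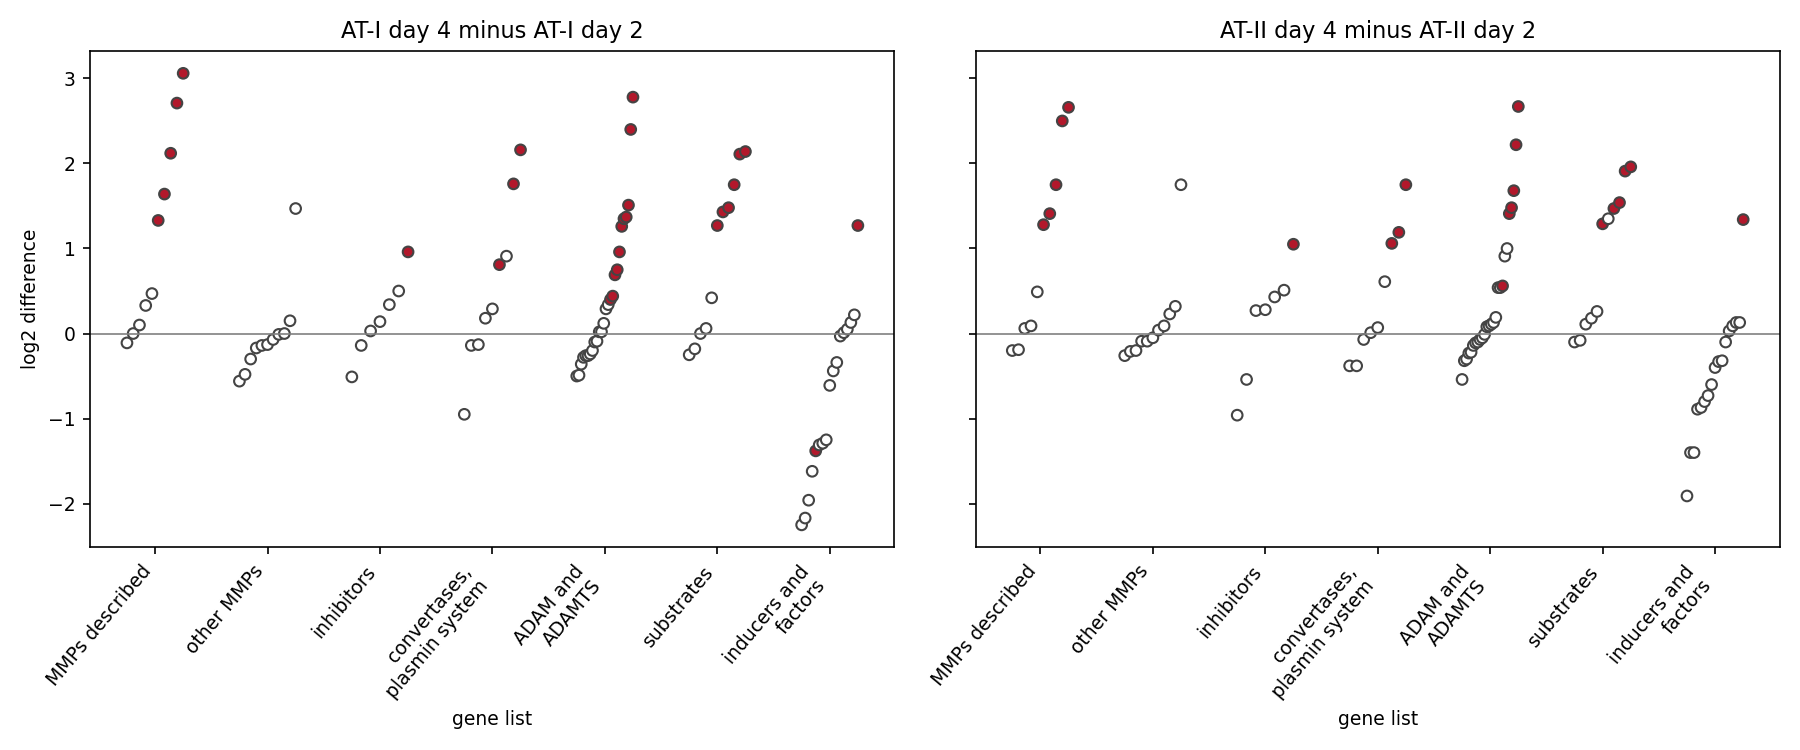
Log2 difference (vertical axis) of every measured gene of 7 lists (horizontal axis), day 4 minus day 2 on AT-I (left) and AT-II (right). Filled points passed at an adjusted p under 0.05. In the list of other metalloproteinases no point is filled, and the open point near 1.5 on AT-I is Mmp7.

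The surfaces were compared to ask whether nanoscale features altered these genes, and 0 of the 10 passed at day 4 or at day 2, where 0% of all genes passed by limma. An unadjusted p under 0.05 was found for 0 of the 10 at day 4 (3.98% of all genes) and for 1 at day 2 (27.3%). At day 4 the differences ran from -0.34 ± 0.27 for Mmp19 to 0.22 ± 0.20 for Mmp3, and all adjusted p were at least 0.913. The intervals left room for differences of different sizes. That of Mmp9 ran from -0.37 to 0.36, that of Mmp2 from -0.91 to 0.65 and that of Mmp13 from -0.99 to 1.08. Mmp23 lay at 8.05 to 8.26 in AT-I day 4 samples, against 8.26 to 8.55 in AT-II day 4 samples, and its difference of -0.29 ± 0.27 did not pass (adjusted p = 0.914).

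At day 2 the median difference of the 10 genes was -0.27, against -0.09 for all genes, and none passed. The medians of the cell type marker lists ran from -0.40 (stromal) to 0.17 (chondrocyte) in the same comparison, so a lean of this size was not particular to the 10 genes. Mmp19 had the largest difference, -0.64 ± 0.29 (95% interval -1.26 to -0.02, unadjusted p = 0.0432, adjusted p = 0.174), with 6.91, 7.89, 7.72 and 8.23 on AT-I, against 7.93, 8.56 and 8.51 on AT-II. Mmp23 had -0.51 ± 0.29 (adjusted p = 0.253) and Mmp3 0.39 ± 0.22 (adjusted p = 0.238). At this day the arrays of the 2 surfaces differed in interquartile range as given above. With that range as a covariate the differences were -0.27 for Mmp19, -0.39 for Mmp23, -0.18 for Mmp3 and 0.75 for Mmp13, none of which passed.

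The difference between the time courses was tested directly. None of the 10 passed, and 0 of all 17245 genes did by limma, with 707 (4.1%) at an unadjusted p under 0.05, none of them among the 10. The differences of the time courses (AT-I minus AT-II) were 0.40 ± 0.53 for Mmp16 (95% interval -0.72 to 1.53), 0.37 ± 0.63 for Mmp12 (-0.97 to 1.70), 0.20 ± 0.54 for Mmp2 (-0.94 to 1.35) and 0.06 ± 0.36 for Mmp14 (-0.70 to 0.82). All adjusted p were at least 0.937. The intervals of Mmp16, Mmp12 and Mmp2 allow a rise on AT-I more than 1 log2 unit above that on AT-II, and that of Mmp14 one up to 0.82 above it. In the other direction the intervals reach as far as -0.97.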

How the data were processed

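The deposited array values, log2 expression, were made by the authors with RMA, and the submitters' processing notes name Affymetrix Expression Console. The log base is inferred from RMA, and the genome build is not given in the sources used here. The values span 1.82 to 14.0. The platform annotation gave the row names, and gene identifiers were looked up in RefSeq's GRCr8 table (18460 of 18644 rows naming 1 gene matched, 0 symbols changed). No use was made of the 962 rows that name several genes or the 9608 that name none. For 879 genes with several rows, none among the 10, the brightest row stood for the gene. Groups came from sample titles.

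The SD of array pairs was taken over the 10% most variable rows among 4036 rows with a mean over 9. limma 3.58.1 in R 4.3.3 fitted group means without covariates or a filter (residual degrees of freedom 11, prior 4.44, two-sided) and was tested on simulated data. Python 3.11.15 with pandas 2.3.3 made the tables. The labels do not tie samples to rats, so any pairing of the surfaces within a rat is not modelled in the main fit. The alternatives were 26 settings, 1 of them added after the data were seen, and 15 leaving out 1 sample each. All 10 genes were named whether they passed or not. Other names were limited to the 4 passing genes per list with the smallest p, the other metalloproteinases and the 3 genes most like each of the 10, and only some of these are given. Furin, Il1b and Fos were named outside that rule, after their values were seen. The 10 genes, the lists and the rule were chosen with earlier results of these data known. Array number limits the precision.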

Additional observations from a re-analysis of the deposited data

Results flagged for a closer look

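Of 33 groups of 4 samples tested for a sample far from the rest (the 10 genes and Mmp7 in 3 groups), 1 stood out, and chance alone flags about 1 group in 20. The first replicate of AT-I day 2 had an Mmp2 level of 6.75, and the other samples of that group had 8.23 to 8.45. Its gap to the next sample was 0.87 of the range of the group, above Dixon's 95% limit for 4 samples. Without that sample the rise of Mmp2 on AT-I was 2.31 and still passed. AT-II day 2, with n = 3, was not tested in this way. In the same sample the stromal markers had a mean of 8.05, against 8.79 to 9.0 in the other samples of the group.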

How the results depend on the processing

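Of 26 other settings, each run for the comparisons it applies to, none reversed a call of the 10 genes. On AT-I the 5 rises passed in all 25 settings run. On AT-II those of Mmp2 and Mmp16 passed in 25, that of Mmp14 in 24, that of Mmp23 in 23 and that of Mmp12 in 9. The number of the 10 genes past the threshold was 5 on AT-I in each setting but 1, in which it was 6 (Mmp9 passed without replicate 2 of AT-I day 2), and was 2 to 5 on AT-II when 1 sample was left out. Values of the 10 genes that did not pass changed sign 100 times over all comparisons and settings.

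The count of all genes between the surfaces at day 2 was 0, and it was 2193 with all 16 arrays counted separately, 1 with quantile normalization repeated, 3713 with array weights, and 0 to 711 when 1 sample was left out (711 without AT-I day 2 replicate 2). The samples share replicate numbers, but the labels do not say that a number marks a rat. Deviations of same-numbered arrays of the 2 surfaces correlated at -0.34 to 0.64, above 0.1 in 6 of 8 pairs. Those of differently numbered arrays of the same day correlated at -0.52 to 0.56. Of 8 AT-I arrays, 4 were closest to their own number. The near-identical AT-II day 2 arrays entered this check separately. These values neither show nor exclude that a number marks a rat. The main surface tests were unpaired for want of labels, and may leave out a pairing within rats. With a replicate block and all 16 arrays, 3823 genes and 2 of the 10 passed at day 2, Mmp19 (-0.70, adjusted p = 0.0268) and Mmp23 (-0.51, adjusted p = 0.0331), and 0 at day 4.

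Of all genes, 1983 passed on AT-I and 575 on AT-II between the days. On AT-I the count was 1314 with the interquartile range of the arrays as a covariate, 1060 with only the 2 groups compared in the fit and 1158 (without replicate 4 of AT-I day 4) to 2954 when 1 sample was left out. On AT-II it was 1228 with array weights, 334 without either day 2 sample numbered 1 and 223 to 694 when 1 sample was left out, the lowest without replicate 1 of AT-II day 2. It was 294 when the averaged sample was left out, and 312 and 354 when replicates 1 and 3 of AT-II day 4 were. Median centring of each array shifted the median of all genes from -0.05 to -0.21 on AT-I and -0.16 on AT-II, and the share of higher genes among those passing from 76.9% to 39.7% on AT-I (65.6% with quantile normalization repeated) and from 93.9% to 72.2% on AT-II. The causes were not tested.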
